A study of Mus musculus with 4 samples.

Results

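The regions described here are the open-chromatin regions measured in wild-type and Rela knockout 3T3 cells, a line of mouse embryo fibroblasts. All regions of the Rela table whose mean signal over the 2 genotypes was at least 1 were taken, which gave 28332 of 28445 regions, out of 34172 in the 2 tables of the series. The other 113 regions had a mean below 1, and 56 of these held 0 in both genotypes. The groups were Rela wt and Rela K.O. cells, the latter without functional alleles of Rela as far as the genotype label goes. Both were at passages 15 to 20 and were grown in DMEM with calf serum and antibiotics, and the labels name no stimulus. Whether either line is a single clone is not given, nor is how the alleles were disrupted. Accessibility was measured by ATAC-seq, in which the Tn5 transposase inserts adapters into open DNA, with 50000 cells per library. The design text gives 2 biological replicates per genotype, but the table holds 1 column per genotype. No difference below therefore has a replicate check, and no test between genotypes was possible.

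Rela encodes p65, the NF-kB subunit that carries the transactivation domain of the main dimer of the canonical pathway. In resting cells p65 is held in the cytoplasm by IkB proteins such as the product of Nfkbia. Receptors for TNF, IL-1 and microbial products activate the IKK kinases, which mark IkB for destruction, and the freed dimers bind kappaB sites and induce chemokines, cytokines, survival genes and their own inhibitors. In fibroblasts the pathway is known for the induction of chemokines, IL-6 and matrix metalloproteinases. The measured values are signal at regions of DNA and not transcript levels.

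Signal is the authors' background-corrected and normalized value, rounded to whole numbers. In a pair of values the wild-type value is given before the knockout value. The log2 ratio is log2((knockout + 1)/(wild type + 1)). Regions with a log2 ratio of 1 or more count as higher in the knockout and those of -1 or less as lower, which is 2-fold. The same ratio is also given after the median of the region's chromosome was subtracted, called chromosome-centred below, and after the median of its 50 nearest regions was subtracted, called neighbour-centred. Intervals in brackets are exact 95% intervals of the ratio of the 2 values, from the counts that the values imply, and they cover counting error only. Column sums were 1386832 in wild-type and 1458609 in knockout cells, and the median region held 34 and 35. These medians correspond to about 49.8 and 36.9 implied counts.

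The promoters below show what was and was not found at NF-kB genes. Each line is the RefSeq window from 250 bases before to 50 after the start of transcription, on the gene's own strand, build GRCm38.p6. Capitals mark the kappaB letters GGGNNTTCC, the same with a further T before the last CC, and the AP-1 letters TGANTCA, on either strand. The shorter kappaB form occurs in 5.82% of all 32851 windows, the longer form in 1.63% and the AP-1 form in 7.81%. Cxcl10 (chr5:92348840-92349139, minus strand) and Map3k7 (chr4:31963857-31964156, plus strand) held a kappaB match and were lower in the knockout. Tlr2 (chr3:83841559-83841858, minus strand) and Cyld (chr8:88696778-88697077, plus strand) held one and were higher. Nfkbia (chr12:55492598-55492897, minus strand) held one and lay within 2-fold as deposited. Mmp3 (chr9:7445572-7445871, plus strand) and Mmp10 (chr9:7502092-7502391, plus strand) held an AP-1 match and no kappaB match, and the former was lower and the latter higher. A match of letters is a description and not a binding site.
Cxcl10: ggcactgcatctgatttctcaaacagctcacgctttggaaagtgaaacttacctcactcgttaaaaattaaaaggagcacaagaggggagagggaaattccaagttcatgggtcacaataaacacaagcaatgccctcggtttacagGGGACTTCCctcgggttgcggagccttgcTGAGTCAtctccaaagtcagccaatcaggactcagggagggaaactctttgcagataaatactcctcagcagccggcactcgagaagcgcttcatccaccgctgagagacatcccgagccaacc
Map3k7: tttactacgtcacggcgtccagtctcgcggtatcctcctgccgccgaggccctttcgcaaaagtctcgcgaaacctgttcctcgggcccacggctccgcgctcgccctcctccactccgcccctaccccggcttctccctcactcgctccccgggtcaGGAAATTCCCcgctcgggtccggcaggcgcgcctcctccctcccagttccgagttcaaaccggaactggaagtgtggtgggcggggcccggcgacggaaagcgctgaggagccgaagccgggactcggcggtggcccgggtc
Tlr2: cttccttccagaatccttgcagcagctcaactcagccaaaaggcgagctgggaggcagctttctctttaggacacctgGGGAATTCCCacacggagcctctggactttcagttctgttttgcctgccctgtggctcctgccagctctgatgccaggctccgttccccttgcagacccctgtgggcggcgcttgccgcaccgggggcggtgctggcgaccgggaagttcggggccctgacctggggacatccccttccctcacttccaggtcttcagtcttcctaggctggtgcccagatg
Cyld: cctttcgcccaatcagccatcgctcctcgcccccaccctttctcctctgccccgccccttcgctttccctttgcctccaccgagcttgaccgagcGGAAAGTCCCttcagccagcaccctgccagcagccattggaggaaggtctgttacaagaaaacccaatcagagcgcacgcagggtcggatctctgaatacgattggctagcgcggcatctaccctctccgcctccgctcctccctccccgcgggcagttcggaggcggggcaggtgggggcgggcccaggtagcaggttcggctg
Nfkbia: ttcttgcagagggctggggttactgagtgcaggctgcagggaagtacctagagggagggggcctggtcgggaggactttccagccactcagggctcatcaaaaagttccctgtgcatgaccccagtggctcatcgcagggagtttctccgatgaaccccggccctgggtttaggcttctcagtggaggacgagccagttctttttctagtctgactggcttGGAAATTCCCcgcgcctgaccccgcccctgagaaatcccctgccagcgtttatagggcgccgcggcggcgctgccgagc
Mmp3: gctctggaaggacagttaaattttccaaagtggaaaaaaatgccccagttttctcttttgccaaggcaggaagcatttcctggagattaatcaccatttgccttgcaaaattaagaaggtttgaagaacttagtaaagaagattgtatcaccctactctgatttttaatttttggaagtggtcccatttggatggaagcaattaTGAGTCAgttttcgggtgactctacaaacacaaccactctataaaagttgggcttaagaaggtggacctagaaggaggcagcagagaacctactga
Mmp10: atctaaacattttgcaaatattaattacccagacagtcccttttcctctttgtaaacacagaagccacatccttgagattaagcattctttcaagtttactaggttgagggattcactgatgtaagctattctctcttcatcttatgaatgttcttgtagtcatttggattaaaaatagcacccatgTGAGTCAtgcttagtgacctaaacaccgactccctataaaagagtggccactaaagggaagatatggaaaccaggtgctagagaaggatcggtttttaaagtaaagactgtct
In these windows the kappaB match began 103 bases before the start in Cxcl10, 92 in Map3k7, 172 in Tlr2, 155 in Cyld and 29 in Nfkbia. The Tlr2 stretch in capitals is read as a match on each strand. The AP-1 match began 46 bases before the start in Mmp3, 63 in Mmp10 and 74 in Cxcl10.

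On the normalized scale, differences ran about equally in both directions. Normalization brings the 2 columns to a common level, so a gain or loss shared by most regions could not show here. Higher in the knockout were 6340 of 28332 regions (22.4%) and lower were 5939 (21%), so that 43.3% were past 2-fold. The median log2 ratio was 0 and the SD over regions was 1.67. After chromosome centring 6008 regions (21.2%) were higher and 5347 (18.9%) lower, 40.1% in all. Of the regions higher as deposited, 87.1% stayed past 2-fold when chromosome-centred and 81.7% when neighbour-centred, and of those lower 81.4% and 72.2% did. No call could change sign with chromosome centring, because every chromosome median was smaller in size than the 2-fold limit. A counting interval wholly beyond 2-fold was found for 3634 higher and 2446 lower regions. Past 4-fold were 3169 higher and 2248 lower regions, and past 16-fold 745 and 366.

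Regions without an assigned gene differed most often and promoters least. Promoters, with their centre within 2500 bp of a start of transcription, were past 2-fold in 26.1% of 8061 regions, 13% higher and 13.1% lower. After chromosome centring these promoter shares were 11.3% and 10.6%. Of 2064 regions from 2500 to 10000 bp from a start 43.5% were past 2-fold, and of 18207 regions without a gene 51.0%. Weak regions were past 2-fold more often than strong ones: of 4 equal groups by mean signal, 60.5% of the weakest, 52.6% and 39.2% of the middle groups and 21.1% of the strongest. The classes kept their order within each signal group. In the strongest group 7.48% of promoters were higher and 5.19% lower, against 16.9% and 12.1% of regions without a gene. In the weakest group the promoter shares were 23.5% and 26.6%, and those of regions without a gene 30.3% and 32.8%. Counting error is largest for weak regions, and its part in the gradient with signal was not tested. By gene type, 22.8% of promoters of protein-coding genes were past 2-fold, against 43.5% for lincRNA, 49.7% for antisense RNA and 45.2% for miRNA genes.

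**Figure D1:**
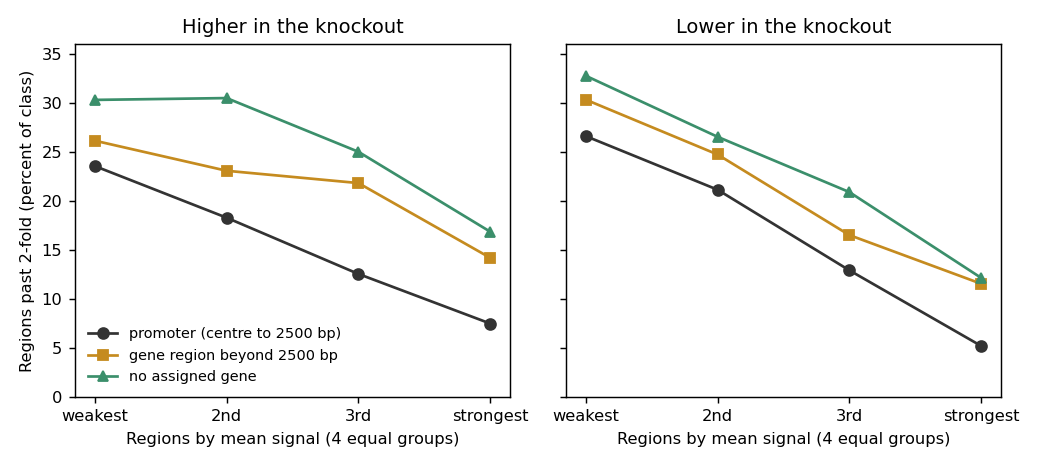
Share of regions at least 2-fold higher (left) or lower (right) in the Rela knockout, as a percentage of each class, for 4 equal groups of regions by mean signal. Lines stand for promoters, gene regions farther than 2500 bp from the start and regions without a gene; the promoter line is lowest in every group, ending at 7.48% and 5.19%.

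Whole chromosomes leaned one way. On chromosome 8 the median log2 ratio was 0.61, with 36.9% of regions higher and 9.89% lower, and on chromosome 3 it was 0.53, with 35.8% and 12.5%. Chromosome 13 had a median of -0.79, with 9.61% higher and 42.3% lower. Chromosomes 10 and 17 had medians of -0.58 and -0.56, with 35.9% and 32.3% of regions lower. The summed signal in the knockout was 1.48 times that in the wild type on chromosome 8 and 1.47 times on chromosome 3. It was 0.684 times on chromosome 13, 0.700 times on chromosome 10 and 0.731 times on chromosome 17. The other 15 chromosomes had medians between -0.29 on chromosome 14 and 0.25 on chromosome 19, and chromosome X had 0.00. Promoters and other regions of a chromosome leaned alike: 0.62 and 0.61 on chromosome 8, 0.52 and 0.56 on chromosome 3, -0.68 and -0.85 on chromosome 13. ATAC-seq signal scales with the number of copies of a region as well as with its accessibility. These cannot be told apart here, since no measure of DNA copies was used.

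**Figure D2:**
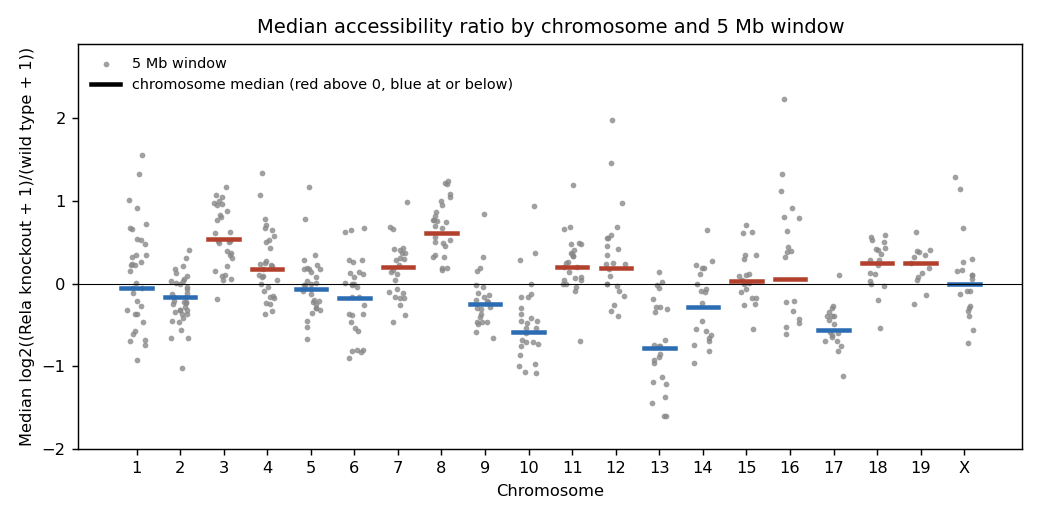
Median log2((Rela knockout + 1)/(wild type + 1)) of 5 Mb windows with at least 20 regions (grey points) and of each chromosome (bars, red above 0 and blue at or below 0). All 26 windows of chromosome 8 lie above 0 and 22 of 24 on chromosome 13 below 0, while single windows on chromosomes 16 and 12 reach 2.24 and 1.98.

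The lean ran along most of these chromosomes. Of 484 windows of 5 Mb with at least 20 regions, 24 had a median of 1 or more, 12 had -1 or less and 322 lay within 0.5 of 0. On chromosome 8 all 26 windows were above 0, on chromosome 3 27 of 28, and below 0 were 22 of 24 on chromosome 13, 17 of 18 on chromosome 17 and 22 of 26 on chromosome 10. The longest run of windows with a median of at least 0.5 was on chromosome 8 from position 50000001 to 120000000, with 1059 regions and a median of 0.79. In that run 105 of 314 promoters were higher and 8 lower. On chromosome 13 from 25000001 to 55000000, 340 regions had a median of -1.32, and 49 of 79 promoters were lower and 1 higher. The lowest windows were all on chromosome 13: 35 to 40 Mb, where the median region held 38 and 10, 40 to 45 Mb, 25 to 30 Mb, 45 to 50 Mb and 95 to 100 Mb, with medians from -1.60 to -1.21.

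Short stretches on other chromosomes stood higher than any window of chromosomes 3 and 8. The highest window was chromosome 16 from 70 to 75 Mb, whose 29 regions had a median of 2.24, with a median signal of 12 and 58. On chromosome 12 the 24 regions from 45 to 50 Mb had a median of 1.98, with 4 and 49.5. Chromosome 1 from 145 to 150 Mb (1.55), chromosome 12 from 25 to 30 Mb (1.46) and chromosome 4 from 20 to 25 Mb (1.34) followed. On chromosome 16 the run from 65000001 to 80000000 had 53 of 93 regions higher and 8 lower. With chromosomes centred, 14 windows had a median of 1 or more and 0 had -1 or less. Of those 14 windows 12 had a median of 1 or more as deposited, and 2 came past it only with centring.

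Regions near each other mostly differed in the same direction at every distance examined. Among neighbouring regions that were both past 2-fold and less than 5 kb apart, 475 of 597 pairs (79.6%) had the same direction. The share was 76.3% from 5 to 20 kb, 74.3% from 20 to 100 kb, 69.6% from 100 to 500 kb and 68.7% from 500 to 5000 kb. The overall shares of higher and lower regions alone would give 50.1%. After chromosome centring the shares ran from 77.2% to 67.5%. Across all pairs of neighbours, Pearson's r of the log2 ratio was 0.37 under 5 kb and 0.14 from 500 to 5000 kb, over regions of the same libraries, which are not independent replicates.

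**Figure D3:**
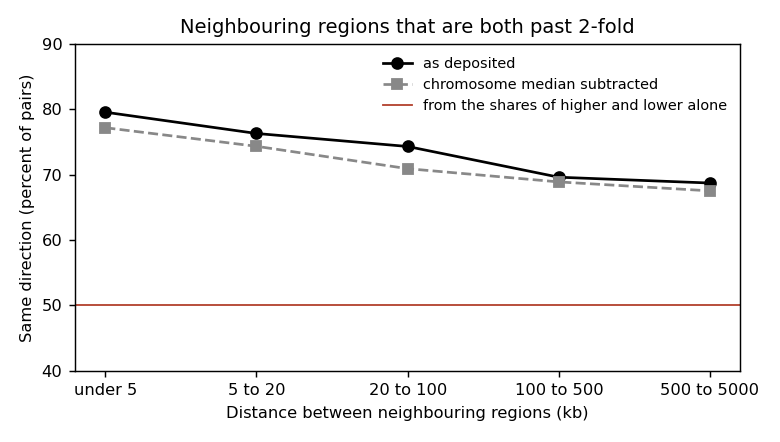
Percentage of pairs of neighbouring regions, both past 2-fold, that had the same direction, by the distance between them in kb, as deposited (black) and with chromosome medians subtracted (grey). The red line at 50.1% marks the share given by the numbers of higher and lower regions alone; the black points go from 79.6% to 68.7%.

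Genes of the NF-kB pathway were described from 5 lists holding 148 genes, of which 75 had a region and 69 a promoter region. A gene with several promoter regions was taken by the mean of their log2 ratios. Of the 69 promoters, 8 (11.6%) were higher in the knockout, 13 (18.8%) lower and 48 within 2-fold, with a median of -0.10. Among all 6586 genes with a promoter region, 11.1% were higher and 11.2% lower, with a median of -0.02. Of the 8 higher NF-kB genes, 6 lie on chromosomes 3 and 8, which hold 10 of the 69. Over all genes 26.8% of higher promoters lie there. Of the 13 lower genes 2 lie on chromosomes 10, 13 and 17, against 35% of all lower promoters. With chromosomes centred, 5 of the 8 and 11 of the 13 stayed past 2-fold and Irf1 joined the lower genes, and the median became 0.01. In that setting 9.28% of all promoter genes were higher and 8.38% lower. When neighbour-centred, 3 of the 8 (Nod2, Tnfrsf11b and Mmp10) and 7 of the 13 (Ccl7, Cxcl10, Map3k7, Map3k14, Ripk1, Mmp3 and Mmp13) stayed past 2-fold. Nfkbia joined the higher genes on that scale and Il1r1 and Tab2 the lower ones, which made 4 higher and 9 lower. Of all promoter genes 9.31% were higher and 7.44% lower when neighbour-centred.

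**Figure D4:**
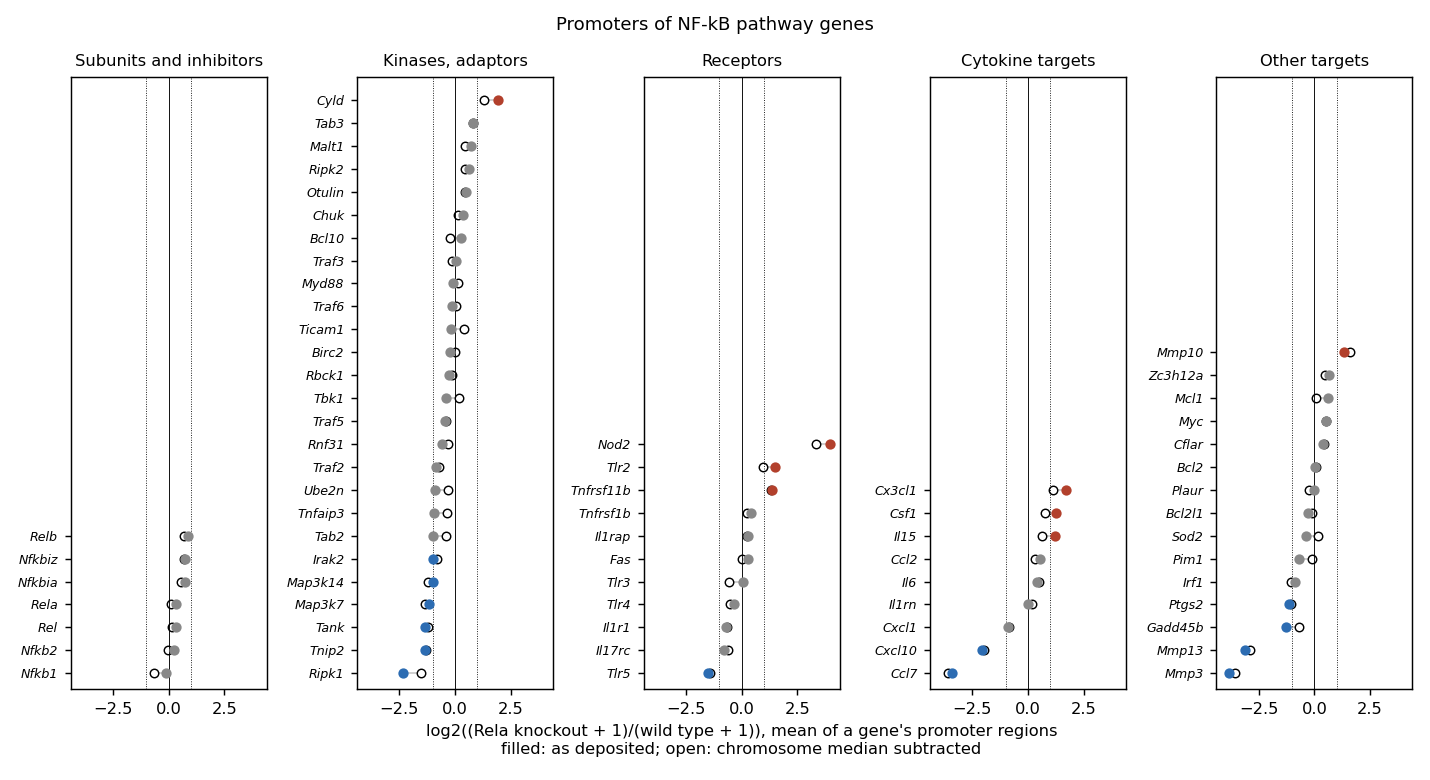
Log2((Rela knockout + 1)/(wild type + 1)) at the promoters of NF-kB pathway genes by role, as deposited (filled; red at least 2-fold higher, blue at least 2-fold lower, grey within) and after the chromosome median was subtracted (open). Dotted lines mark 2-fold. All 7 genes of the subunit and inhibitor panel lie within it on both scales, and as deposited 6 of 26 genes of the kinase and adaptor panel lie at or below the lower line.

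The promoters of the NF-kB subunit and IkB family genes were all within 2-fold as deposited and when chromosome-centred, and 1, that of Nfkbia, was past 2-fold when neighbour-centred (1.03). Of 15 listed genes 7 had a promoter region, with a list median of 0.35. Rela itself had 1 region, at its promoter, with 21 and 27 (ratio 1.29, 0.744 to 2.21), and a value at the promoter is no check of a deletion in other parts of Rela. The promoter of Nfkb1, which encodes p105 and p50, held 42 and 39, and that of Nfkb2, which encodes p100 and p52, held 214 and 251. Rel held 140 and 177, and Relb, the partner of p52 in the non-canonical pathway, held 36 and 67 (1.86-fold, 1.28 to 2.71). The IkB family genes Nfkbia and Nfkbiz, both induced by NF-kB itself, held 62 and 103 (1.66-fold, 1.25 to 2.22) and 32 and 54. As deposited 6 of these 7 were above the wild type and 1 below, and Nfkb2 changed sign to -0.02 when chromosome-centred.

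Among the kinases, adaptors and deubiquitinases between receptors and IKK, 6 of 26 promoters (23.1%) were lower and 1 (3.85%) higher. Of all promoter genes 11.2% were lower and 11.1% higher. The list median was -0.35 as deposited and -0.003 when neighbour-centred. Of the 6 lower genes, only Ripk1, Map3k7 and Map3k14 stayed past 2-fold when neighbour-centred. Ripk1, the kinase scaffold of the TNF receptor complex, held 100 and 19 and was 5.26-fold lower (3.29 to 8.87). It lies on chromosome 13 (34002114 to 34002862, 125 bp from the start) in the stretch described above, and its log2 ratio of -2.34 became -1.55 chromosome-centred and -1.28 neighbour-centred. Map3k7 encodes TAK1, the kinase that activates IKK, and held 89 and 39 (2.28-fold lower, 1.60 to 3.33). Map3k14 encodes NIK, the kinase of the non-canonical pathway, and held 113 and 56 (2.02-fold, 1.49 to 2.76), a log2 ratio exactly at the threshold that became -1.20 chromosome-centred. Tank and Tnip2, which encode proteins that bind TRAFs or ubiquitin and restrain signalling, held 40 and 15, and 35 and 13. Irak2, an IL-1 receptor kinase, held 43 and 21, also exactly at the threshold, and was within 2-fold when chromosome-centred (-0.83).

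The Cyld promoter, of a deubiquitinase that shuts the pathway off, was the 1 higher member of that group. Its main region held 133 and 358 (2.69-fold, 2.26 to 3.22) and a weaker one 4 and 26. The gene lies on chromosome 8 beside Nod2, and the log2 ratio of the main region was 0.81 chromosome-centred and 0.30 neighbour-centred. The other 19 genes lay within 2-fold. Tnfaip3, whose product A20 is an NF-kB-induced inhibitor, held 85 and 43 (log2 ratio -0.97), and Tab2 and Ube2n on the same chromosome 10 held 76 and 38, and 86 and 45. The adaptor genes Myd88 (175 and 162), Traf6 (76 and 69), Ticam1 (133 and 117) and Birc2 (113 and 96) differed little. Ripk2 (112 and 172), Malt1 (40 and 66), Tab3 (54 and 95), Otulin (63 and 88), Bcl10 (109 and 133), Chuk (16 and 21) and Traf3 (29 and 30) had more signal in the knockout. Rnf31 (277 and 184), Rbck1 (108 and 88), Traf2 (45 and 24), Traf5 (67 and 49) and Tbk1 (123 and 93) had less. A distal region of Traf2 held 24 and 5. Irak3, an IRAK family member that restrains signalling, had only a region beyond 2500 bp, which held 47 and 18.

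Of 11 receptor genes 3 had higher promoters and 1 a lower one. Nod2, an intracellular sensor of bacterial peptidoglycan, had its region on chromosome 8 (88647155 to 88647553, 39 bp from the start). It held 3 and 61, a ratio of 20.3 (7.87 to 71.3), and its neighbour-centred log2 ratio was still 2.83. Tlr2, a receptor for bacterial lipoproteins on chromosome 3, held 18 and 53 at its promoter (2.94-fold, 1.82 to 4.87) and 81 and 111 at a region 3402 bp away, and its promoter was just within 2-fold when chromosome-centred (0.97). Tnfrsf11b, which encodes the RANKL decoy osteoprotegerin, held 30 and 79 (2.63-fold, 1.81 to 3.89). Tlr5, the flagellin receptor, held 27 and 9. The remaining receptors were within 2-fold: Tlr4 (227 and 178), Il1rap (119 and 147), Tlr3 (71 and 74), Tnfrsf1b (70 and 95), Il17rc (53 and 30), Il1r1 (46 and 28) and Fas (41 and 50).

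Cytokine and chemokine targets went both ways. Of 9 promoters 3 were higher and 2 lower, the latter being the chemokine genes Cxcl10 (45 and 10, 4.5-fold, 2.33 to 9.61) and Ccl7 (20 and 1, a ratio of 20 whose interval ran from 3.44 to 696). Cx3cl1, the membrane-bound chemokine fractalkine, held 24 and 81 at its promoter (3.38-fold, 2.25 to 5.15), and both of its regions beyond 2500 bp were higher too (38 and 81, and 16 and 36). Csf1, the macrophage growth factor, held 39 and 96, and Il15, a cytokine of lymphocytes, held 87 and 206. All 3 higher genes lie on chromosomes 3 and 8, and Csf1 and Il15 were within 2-fold when chromosome-centred (0.74 and 0.62). Promoters of classical p65 targets were within 2-fold: Il6 held 29 and 39, Ccl2 191 and 275, Cxcl1 74 and 39, and Il1rn 46 and 46. Away from promoters, Il11 had a region at 4506 bp with 0 and 31. Against a floor of 3 counts its knockout value was at least 15.1-fold higher, and its exact interval began at 11.6. Distal regions of Tnfsf15 (35 and 16), Ccl20 (121 and 71), Cxcl5 (54 and 39) and Ccl5 (59 and 100) made up the rest.

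Of 16 survival, protease and enzyme targets 1 was higher and 4 lower. The matrix metalloproteinase genes Mmp13, Mmp3 and Mmp10 lie in 1 cluster on chromosome 9, with regions that start at 7272258, 7445610 and 7502019. Mmp13, a collagenase, held 43 and 4 (10.8-fold lower, 4.09 to 39.0) and Mmp3, stromelysin-1, held 56 and 3 (18.7-fold lower, 6.32 to 87.4). Mmp10, stromelysin-2, was higher with 16 and 42 (2.63-fold, 1.56 to 4.53). The promoters of this cluster thus differed in direction over a short distance, and each log2 ratio was past 2-fold on all 3 scales. Ptgs2, which encodes the prostaglandin synthase COX-2, held 111 and 63 at its start and 48 and 17 at a region 2083 bp away, with log2 ratios of -0.81 and -1.44. Gadd45b, a stress-induced survival gene, held 23 and 9. The anti-apoptotic genes Bcl2 (79 and 80), Bcl2l1 (100 and 82), Cflar (37 and 48) and Mcl1 (36 and 55) lay within 2-fold. So did Sod2 with 158 and 129 and with 70 and 50, Myc (96 and 139), Zc3h12a (66 and 103), Plaur (35 and 34), Pim1 (52 and 32) and Irf1 (19 and 10).

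The deposited annotation gave a further view of the pathway, chosen after the data were seen. Of 35 genes placed in the KEGG NF-kappa B pathway with a promoter region, 2 were higher (Blnk and Ly96) and 5 lower (Gadd45b, Map3k14, Map3k7, Ptgs2 and Ripk1), with a median of -0.11. Its shares were 5.71% higher and 14.3% lower. In the KEGG TNF pathway 5 of 57 (8.77%) were higher and 10 (17.5%) lower, with a median of -0.05. Of all promoter genes 11.1% were higher and 11.2% lower. With chromosomes centred, 3 were higher and 4 lower in the NF-kappa B set, and 2 and 9 in the TNF set. In that setting 9.28% of all promoter genes were higher and 8.38% lower. These sets share many genes with the lists above and are not separate evidence.

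NF-kB promoters held kappaB letters more often than other promoters, but the matches did not go with lower signal. A RefSeq window was matched to 5087 promoter regions, and 4445 of the windows overlapped their region. Either kappaB form was in 7.001% of all windows, in 8.81% of matched promoter regions and in 22 of 60 (36.7%) NF-kB promoter regions. Of those 22 regions 5 were higher and 3 lower, with a median of 0.05, and of the 38 without a match 2 were higher and 9 lower, with a median of -0.29. The 5 higher ones included both regions of Cyld, which share 1 window. With chromosomes centred, 2 were higher and 3 lower among the 22. Over all promoters, 20.3% of 389 with GGGNNTTCC were past 2-fold and 22.2% of those without, and the lower shares were 10.0% and 11.9%.

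The longer kappaB forms were few. The form with the further T was in 90 promoter regions, 9 higher and 12 lower. That form with AC in place of its NN is the decamer first known from the immunoglobulin kappa enhancer. It was in 9 regions of 8 genes, and 4 were higher and 0 lower. Of promoter regions without it 10.3% were higher and 11.8% lower. The higher ones were both regions of Cyld, Csf1, and Cachd1 (38 and 100), and the others were Nfkb2, B2m (102 and 91), Mdfic (70 and 77), Rabgap1 (28 and 24) and Rbm19 (61 and 39). Cyld and Csf1 lie on chromosomes 8 and 3, which leaned higher as a whole. With chromosomes centred 2 of the 9 were higher. When neighbour-centred, the main Cyld region (0.30), Csf1 (0.21) and Cachd1 (0.93) were within 2-fold. The weaker Cyld region, which the window does not overlap, was at 1.31. Because the windows cover only 300 bases, a missing match says nothing of sites elsewhere.

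Promoters with AP-1 or TATA letters were past 2-fold more often, in both directions. Of 260 promoter regions with TGANTCA 30.4% were past 2-fold, 15.8% higher and 14.6% lower, against 21.6% of those without. Among the strongest signal group the shares were 17.2% and 11.6%. Of 313 with TATAAA, the core promoter element of many inducible genes, 31.9% were past 2-fold and of the rest 21.4%. Promoters with GGGCGG, the Sp1 letters common in CpG islands, were past 2-fold less often. In the strongest signal group 11.3% with it and 13.4% without were past 2-fold. Median signals were 60 and 59 with it, and 51 and 48 without. Over all signal groups 20.0% of 3681 with it were past 2-fold, against 27.7% of 1406 without. The shares with and without were 20.2% and 23.6% for CCAAT, 22.7% and 22.0% for the E-box CACGTG, 23.5% and 21.9% for the TEAD letters GGAATG, 19.5% and 22.3% for the ETS letters CCGGAAGT and 18.2% and 22.2% for the CRE letters TGACGTCA. All motifs were searched on both strands. Over all 32851 windows their shares were 13.6% for TATAAA, 35.7% for GGGCGG, 37.4% for CCAAT, 7.15% for CACGTG, 14.7% for GGAATG, 3.89% for CCGGAAGT and 1.79% for TGACGTCA.

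Lists of other pathways, read against the same 11.1% higher and 11.2% lower, showed where larger differences lay. Mesenchymal and homeobox regulators had 5 of 27 promoters higher and 7 lower, and a median of 0.00. Meis1, a HOX cofactor, held 0 and 32. Measured from the floor, Meis1 was at least 15.6-fold higher, and its exact interval began at 12.02. Six2, a gene of nephron progenitors and craniofacial mesenchyme, held 12 and 60 on chromosome 17, where most differences were in the other direction. Pax3 held 3 and 23. Lower promoters were those of Runx1 (94 and 17, 5.53-fold, 3.37 to 9.62), Foxc1 (59 and 8), Osr2 (84 and 31), Sox11 (39 and 14), Tcf4 (61 and 24) and Msx2 (48 and 16). The Runx1 region lies on chromosome 16 (92827796 to 92828896), 2197 bp from the start. Runx1 stayed at -2.45 chromosome-centred and -2.65 neighbour-centred, while Foxc1 on chromosome 13 went from -2.74 to -1.95 and -1.73. Tbx3 was also higher and Msx1 also lower. With chromosomes centred Msx2 was within 2-fold (-0.74) and Snai1 was higher (1.02). Twist1 (53 and 105), Snai2 (113 and 87) and Gli3 (105 and 104), regulators of mesenchymal cells, lay within 2-fold.

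Receptor and ligand genes for growth factors had 4 higher promoters and 0 lower of 16, with a median of -0.14. The EGF receptor gene Egfr held 46 and 153 (3.33-fold, 2.49 to 4.49), the ephrin receptor gene Epha4 20 and 147 on chromosome 1 at 77513347 to 77516602 (7.35-fold, 4.93 to 11.3) and the lymphangiogenic ligand gene Vegfc 40 and 125 (3.13-fold, 2.28 to 4.33). With chromosomes centred 4 promoters of the list were higher and 0 lower. When neighbour-centred, Vegfc (0.39) was within 2-fold and Egfr (0.9986) just within it. Ephb6 is given with the strong regions below. A region of the ephrin receptor gene Epha2, 3183 bp from its start, held 62 and 9. The Met gene had a weak promoter region with 23 and 7 and a stronger one with 111 and 169.

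Interferon response genes had 4 higher promoters and 0 lower of 13, with a median of -0.16. They were the antiviral genes Ddx60 (12 and 49) and Bst2 (29 and 60) on chromosome 8, Gbp3 (17 and 45) on chromosome 3 and Mx1 (23 and 67) on chromosome 16. With chromosomes centred Ddx60 and Mx1 stayed past 2-fold. When neighbour-centred these came to 0.93 and 0.96, just within it, Gbp3 was past it (1.06), and the interferon receptor gene Ifnar1 (71 and 45) was lower (-1.15). Among 16 AP-1 and stress factors 4 were lower and 1, Jund, higher, though Jund was within 2-fold when chromosome-centred (0.50). The lower ones were the stress-induced factor genes Atf3 (69 and 10), Fos (66 and 26), Egr2 (32 and 10) and Cebpd (74 and 35), while Jun (232 and 286), Junb (320 and 332), Fosl2 (119 and 130) and Egr1 (158 and 180) lay within 2-fold.

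Matrix, integrin and TGF-beta genes had both directions. Of 24 matrix promoters 4 were higher (Mmp2, Fbln1, Postn and Thbs2) and 7 lower (Mmp3, Mmp13, Tnc, Col5a1, Fbln2, Has2 and Timp3), with a median of -0.09. With chromosomes centred 2 were higher and 6 lower, and Mmp2 (0.95), Postn (0.53) and Timp3 (-0.45) were within 2-fold. The gelatinase gene Mmp2 held 18 and 55, the fibulin gene Fbln2 137 and 55, and the hyaluronan synthase gene Has2 155 and 74. Of 13 integrin adhesion promoters Itga1 (147 and 30) and Itga7 (42 and 9) were lower and Pxn higher. Itgb1, the common beta chain, held 47 and 79 and the adaptor Zyx 434 and 386. In the TGF-beta and BMP list 3 of 26 were lower (Smad3, Tgfb2 and Tgfbi) and the BMP antagonist gene Nog higher, with 8 and 22. With chromosomes centred Tgfbi (-0.59) was within 2-fold, while Ltbp1 (1.10) was higher and Acta2 (-1.15) lower. The Hox list had 3 of 6 lower and 1 higher.

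The cell cycle and p53 lists had about the share of promoters past 2-fold found over all promoter genes, and the metabolic lists had fewer. In the p53 and apoptosis list of 16, Pmaip1 (0 and 14) and Rbl2 (83 and 170) were higher and Rb1 (53 and 9) and Mdm2 (137 and 51) lower. With chromosomes centred Rbl2 (0.41) and Mdm2 (-0.83) were within 2-fold. Cdkn1a had a distal region (4051 bp) with 132 and 29. Of 25 cell cycle promoters 2 were higher (E2f4 and Mki67) and 4 lower (Cdk1, Cdk2, Ccnb2 and E2f3), and 1 and 2 were so with chromosomes centred. Cholesterol and fatty acid synthesis had 0 of 19 past 2-fold and a median of 0.09, for example Hmgcs1 with 281 and 190 and Insig1 with 226 and 196. Glycolysis and hypoxia had Pfkp higher (10 and 31) and Pfkl lower of 17, and Pfkl was within 2-fold when chromosome-centred (-0.45). Heat shock and unfolded protein response had Ern1 higher (25 and 66) and Hsp90aa1 lower (108 and 47) of 17, and the circadian clock Fbxl21 higher (13 and 44) of 17. Of 3 imprinted genes 1 was higher and 1 lower. Of 20 housekeeping promoters Psmb2 (12 and 55) was higher and Rplp0 (34 and 11) lower, and the median was -0.04.

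Strong regions, taken by the mean signal of both genotypes, held large differences too. That mean can be reached through 1 genotype alone, and several of the largest ratios rest on a wild-type signal of 1 to 6. The table gives a gene symbol for 3032 of the 3352 promoters with a mean signal of at least 63, and of these 3032, 209 (6.89%) were higher and 146 (4.82%) lower. The shares of 7.48% and 5.19% given above for the strongest signal group also count promoters without a symbol. Of the 320 promoters of that strength without one, 40 were higher and 31 lower. The 12 highest and 12 lowest by chromosome-centred ratio were taken. Highest were the Eph receptor gene Ephb6 (1 and 211) and Tbx3 (1 and 140), each with a wild-type signal near 0. The olfactory receptor gene Olfr654 held 1 and 143, with an interval of the ratio from 32.4 to 2108. Tmem37 held 3 and 164. Pdzrn3, encoding a ubiquitin ligase with PDZ domains, held 6 and 264 on chromosome 6 (101376951 to 101378579), a 44-fold difference (22.7 to 98.3). Negr1, encoding a neuronal adhesion protein, held 5 and 152, the claudin gene Cldn23 4 and 129, and Tusc1 11 and 154. The tetraspanin gene Cd53 held 10 and 155 and the B cell adaptor gene Blnk 17 and 180 (10.6-fold, 6.95 to 16.8), with regions 1361 and 1378 bp from the starts. The glutamine transporter gene Slc38a1 held 36 and 306. Gm43517 (5 and 187) lies within the chromosome 12 window from 45 to 50 Mb described above. The neighbour-centred log2 ratios of these 12 ran from 2.76 for Cd53 to 6.65 for Ephb6.

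The lowest strong promoters were less extreme, between 2.72-fold for the pre-B cell gene Vpreb1 (144 and 53) and 5.38-fold for the kinesin gene Kif6 (113 and 21). Glo1, which encodes the methylglyoxal-detoxifying enzyme glyoxalase 1, held 176 and 35 on chromosome 17 at 30612383 to 30612889 (5.03-fold, 3.55 to 7.31). The DNA repair scaffold gene Slx4 held 185 and 50 (3.7-fold, 2.75 to 5.07), the zinc finger gene Zfp69 126 and 33, the lysosomal channel gene Tpcn1 133 and 38 and the annexin gene Anxa8 159 and 47. Cryab, encoding the small heat shock protein alpha-B-crystallin, held 109 and 31, Pkhd1 103 and 35, Rnf39 111 and 23 and the collagen-binding integrin gene Itga1 147 and 30. Rab3gap2, a regulator of Rab GTPases with 126 and 40, was the 1 of the 24 that was within 2-fold when neighbour-centred (-0.48). Kif6, Glo1 and Rnf39 lie on chromosome 17.

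**Figure D5:**
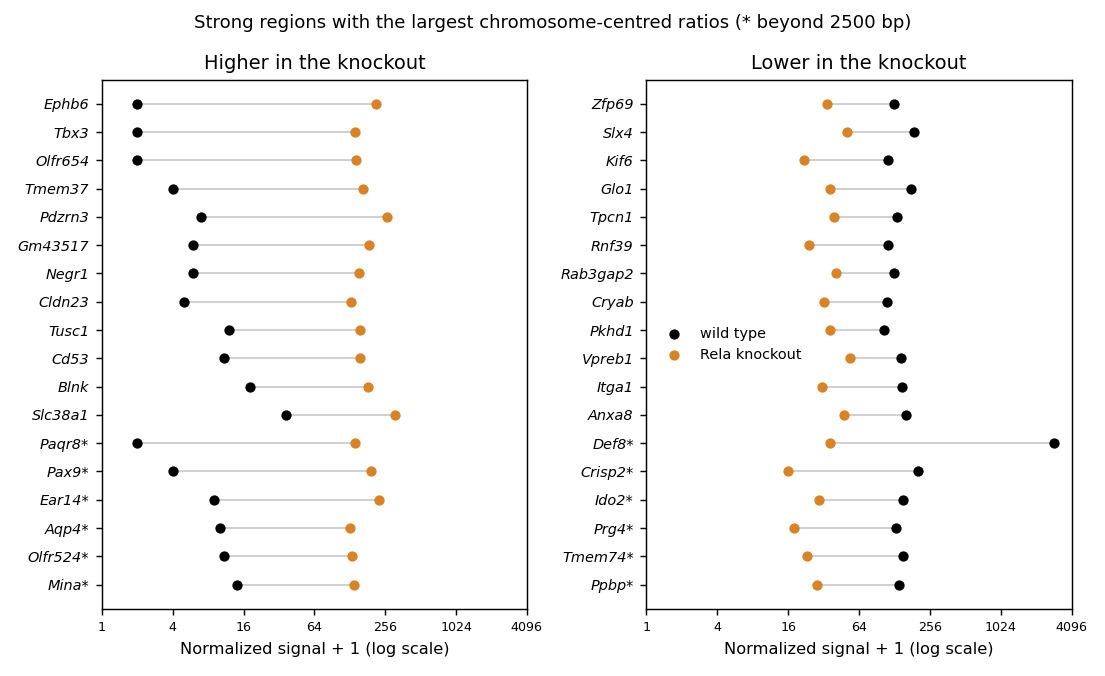
Normalized signal + 1, on a log scale, in wild-type (black) and Rela knockout (orange) cells at the strong regions with the highest (left) and lowest (right) chromosome-centred ratios, 1 per gene; asterisks mark regions farther than 2500 bp from the start. Several higher regions start from a wild-type signal of 1 to 6, while the lower regions keep a knockout signal of 15 or more.

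Of 243 strong gene regions beyond 2500 bp, 32 were higher and 28 lower. The highest were at Paqr8 (1 and 142), the homeobox gene Pax9 (3 and 193), Ear14 (8 and 226), the water channel gene Aqp4 (9 and 127), Olfr524 (10 and 133) and Mina (13 and 138). The lowest were at Def8 (2897 and 35), Crisp2 (203 and 15), the tryptophan-degrading enzyme gene Ido2 (151 and 28), the lubricin gene Prg4 (132 and 17), Tmem74 (149 and 22) and the platelet chemokine gene Ppbp (140 and 27). Most strong promoters were within 2-fold, namely 2677 of the 3032 with a symbol. The promoters with the highest mean signal, taken by that mean and not by ratio, were all within 2-fold too. This does not set them apart from other strong promoters. Gm21738 held 7946 and 10503, Trip10 721 and 738, Alyref2 712 and 645, Zfp703 673 and 628, Evi5l 493 and 739 and Snapc2 475 and 699.

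Genes with several regions seldom had all of them past 2-fold. Of 725 genes with at least 2 regions, 18 had all regions higher, 35 all lower and 25 had regions past 2-fold in both directions. With chromosomes centred these numbers were 16, 20 and 24. Of all regions with a symbol 12.3% were higher and 13.1% lower as deposited, so few genes would have all regions past 2-fold from these shares alone. Regions of a gene share its place on the chromosome and are not replicates. Anxa8 had 3 lower regions (74 and 8, 159 and 47, 119 and 28) and Cx3cl1 3 higher ones. Angptl4, a secreted inhibitor of lipoprotein lipase, had 2 lower regions (76 and 12, 119 and 58), as did Afap1 (45 and 2, 44 and 9), Akap11 (42 and 11, 23 and 2), Amd1 (14 and 6, 40 and 11) and 4930550C14Rik (19 and 2, 21 and 0). Ankrd1 had 2 higher ones (4 and 31, 27 and 70). At the chemokine receptor gene Cxcr6 the promoter held 3 and 35, while regions 2657 and 3355 bp away held 16 and 5, and 25 and 3. The lysine methyltransferase gene Setd7 held 24 and 55 at 427 bp, but 31 and 5 at 992 bp and 26 and 7 at 3815 bp. Sh3rf2 and 4921524J17Rik also had regions in both directions.

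Among 490 genes with both a promoter region and a region beyond 2500 bp, the promoter was past 2-fold in 100 and the farther region in 210. Over all regions the shares past 2-fold were 26.1% of promoters and 43.5% of regions from 2500 to 10000 bp. In 48 genes both were past 2-fold, and 34 of these went the same way. With chromosomes centred these numbers were 37 and 25. Among all neighbouring regions both past 2-fold, 79.6% went the same way under 5 kb and 76.3% from 5 to 20 kb. The median size of the log2 ratio was 0.52 at the promoters and 0.83 at the farther regions. The farther region had the larger size in 323 genes. Over all regions, those from 2500 to 10000 bp were weaker than promoters (medians 31 and 30, against 52 and 52). The part of signal in this was not tested.

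Markers of fibroblasts were measured in both genotypes. Of 13 such genes 9 had a region, with a summed signal of 425 and 463. Vim held 110 and 108, Pdgfrb 44 and 34, Col1a2 51 and 29, and distal regions of Pdgfra and Thy1 held 58 and 57, and 31 and 25. Of 7 fibroblast promoters S100a4 (46 and 133), Fbln1 and Postn were higher and Dpt lower. With chromosomes centred, S100a4 (0.98) and Postn (0.53), both on chromosome 3, were within 2-fold, which left 1 higher and 1 lower. None of 8 endothelial markers had a region. Of 9 leukocyte markers 3 had one (summed 90 and 73), of 10 epithelial markers 4 (145 and 62), of 6 adipocyte markers 3 (57 and 144), of 8 neural markers 2 (24 and 78) and of 8 muscle markers 1, Dmd, which held 85 and 0. Members of a list did not all go one way. Of the adipocyte promoters, those of the regulator genes Cebpa (22 and 66) and Ebf2 (3 and 34) were higher in the knockout, and that of the fatty acid carrier gene Fabp4 was lower (16 and 5), while a distal region of Fabp4 held 16 and 39. Of the neural promoters, that of the stem cell gene Sox2 was higher (9 and 63) and that of the tubulin gene Tubb3 held 15 and 15. Of the epithelial regions, the promoters of Krt19 (8 and 19) and Cdh16 (2 and 7) were higher as deposited and within 2-fold when chromosome-centred. The distal regions of Pax8 (111 and 26) and Krt5 (24 and 10) were lower, and Pax8 made up most of the summed signal. The leukocyte genes Ptprc (56 and 33, distal), Cd68 (14 and 12) and Csf1r (15 and 17 at its start) lay within 2-fold, and a weaker region of Csf1r held 5 and 11, exactly at the threshold. Among 7 chondrocyte and osteoblast markers Runx2 alone had a region, with 51 and 39. Whether these differences go with the others was not tested.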

How the data were processed

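ATAC-seq libraries of Rela wt and Rela K.O. 3T3 fibroblasts were analysed from 1 table deposited by the authors. The authors deposited each value as a score, namely signal after background correction and DESeq normalization per the labels' name of the table, in whole numbers. The build was mm10, and the tools named in the submitters' processing notes, without roles, were Trimmomatic 0.33, FastQC, Picard 1.136, STAR 2.4.2a, bedtools, MACS2, DESeq2 and deepTools. How Tn5 cuts were shifted, duplicates treated, regions called and replicates combined is not given in the sources used here. Whether region starts count from 0 or 1 is not stated either. Positions and gene assignments are those of the table.

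From these values log2((knockout + 1)/(wild type + 1)) was computed for regions with a mean of at least 1, with a pseudocount of 1, which understates differences of weak regions. With 1 column per genotype there is no p-value. A count multiplied by a fixed factor and rounded leaves gaps among whole numbers. The factor that explained most of them was 0.683 for wild type (91.7% of deviance, next best 30.4%) and 0.949 for the knockout (79.6%, next best 12.6%), so the columns correspond to about 2030500 and 1537000 counts. Were a column a mix of replicates scaled apart, this depth would not hold. Exact (Clopper-Pearson) 95% intervals of ratios and a floor of 3 counts for a signal of 0 (2.05 in wild type, 2.85 in the knockout) use these counts, take background-corrected values as scaled counts and cover counting error only.

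The members and lists were chosen with earlier results of these data known, so no list is independent evidence. There were 21 pathway and 8 marker lists with 734 genes, of which 391 had a region and 351 a promoter region. Named were all regions of Rela; the 12 highest and 12 lowest promoters and 6 highest and 6 lowest farther gene regions by chromosome-centred ratio in the strongest of 4 signal groups; 8 genes with most regions past 2-fold in 1 direction and 4 in both, ties broken alphabetically; up to 5 promoters past 2-fold per list and every NF-kB list gene; the 5 highest and 5 lowest windows; and the 6 promoters with the highest signal. Some results that these rules cover are not reported here. Other genes printed were chosen after their values were seen. Promoter windows and symbols came from RefSeq tables of GRCm38.p6, matched by symbol. Alternatives were other pseudocounts, filters, scalings, thresholds, window sizes and promoter limits. The counting interval beyond 2-fold and the KEGG sets were added after the data were seen. Scripts were tested on simulated data and used Python 3.11.15, numpy 2.4.6, pandas 2.3.3, scipy 1.17.1, statsmodels 0.14.6 and matplotlib 3.10.9.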

Additional observations from a re-analysis of the deposited data

How the results depend on the processing

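With 1 column per genotype no result has a replicate check. No paired analysis was possible because the table holds 1 column per genotype and no test was made. Differences of weak regions and ratios from a signal near 0 are limited by depth. Of 122 named promoters, regions and list genes, 81 kept their call under both other pseudocounts, quantile and loess scaling, chromosome centring and neighbour centring, and 1 reversed: E2f3, lower as deposited, had 0.0095 when neighbour-centred. Many of the 122 were chosen for a large chromosome-centred ratio, which favoured keeping the call, so these numbers do not measure how stable regions are in general.

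Counts moved with the filter and the threshold. Among regions of at least median signal, 2380 were higher and 1931 lower at 2-fold. Over all regions, without that filter, 3169 were higher and 2248 lower at 4-fold. A counting interval beyond 2-fold, added after the data were seen, gave 3634 and 2446. List genes with a higher or lower promoter numbered 18 and 23 with the median filter and 13 and 15 at 4-fold. With that filter, lower regions made up 31.8% on chromosome 13, 31.1% on chromosome 10 and 24.2% on chromosome 17, higher regions 33.0% on chromosome 8 and 30.8% on chromosome 3, and 1.69% of windows had a median of 1 or more. Quantile scaling gave 34.4% higher on chromosome 8. With chromosomes centred, 21.9% of promoters and 48.0% of regions without a gene were past 2-fold, and 20 genes had all regions lower. Each cause was not tested, except that the filter and the threshold leave fewer regions to call.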
